A study of Mus musculus with 6 samples.

Results

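The genes described here are grouped as chromatin modifiers and remodellers. They were taken from the array by gene symbol: those starting with Kdm, Kmt, Setd, Hdac, Dnmt, Smarc or Arid, together with Sirt1 to Sirt7, Tet1 to Tet3, Chd1 to Chd9 and the Polycomb genes Ezh1, Ezh2, Eed and Suz12. This gave 98 of 19938 genes, carried by 141 of the 21789 probe sets that GEO's platform annotation pairs with a single symbol. Each gene was represented by its brightest probe set. A gene was tested where that probe set was no dimmer than the median probe set of at least 1 array, which held for 88 members, among 9925 genes tested in all. The 10 members below this level in every array were Kdm4d, Hdac11, Sirt3, Dnmt3aos (an RNA from the other strand of Dnmt3a), Dnmt3b, Dnmt3l, Smarca1, Smarcd3, Arid3c and Chd5.

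The study asked which genes respond to Runx3, a transcription factor of the Runt family, in resting CD8+ splenic T cells (CD8-TC). Affymetrix mouse Gene 1.0 ST arrays, which read along whole transcripts, were hybridized with RNA from CD8-TC of 3 mice lacking Runx3 (Runx3-/-) and 3 WT mice (Runx3 +/+ in the labels), all male, 6 weeks old and of the outbred ICR stock, so that mice of the same genotype differed in genetic background. Every mouse provided 1 array, and the cells were used fresh, with no treatment. Runx3-/- cells were positively selected on anti-CD8 beads and then FACS sorted to take out dendritic cells carrying CD11c and CD8, whereas the labels give bead selection to >95% purity for WT cells and mention sorting for all samples in another field. The paper's methods describe a sort of CD8-TC for Runx3-/- mice alone. Unless the WT cells were sorted too, genotype and the extra sort cannot be told apart in these arrays. Runx3 is missing throughout these mice and not in T cells alone.

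DNA in the nucleus is wrapped around histones. Many of the proteins described here add or remove chemical marks on histones or DNA, or slide and evict nucleosomes with energy from ATP. Some members, all taken by symbol, act on other substrates or are no enzymes. Histone methyltransferases and Polycomb repressive complex 2 (PRC2) write methyl marks and Kdm demethylases remove them, while deacetylases and sirtuins take off acetyl groups. Dnmt enzymes methylate cytosines, Tet enzymes oxidize the methyl group, and Smarc, Arid and Chd proteins serve in remodelling complexes such as SWI/SNF and NuRD. In T cells several of them, among them Smarce1, Chd4, Hdac1 and Dnmt1, are known for their part in the control of Cd4 or in keeping the identity of mature T cells.

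Of the 88 tested members, 7 were higher in Runx3-/- than in WT CD8-TC (Hdac1, Hdac10, Chd3, Chd6, Arid3b, Arid4a and Setd4), 1 was lower (Hdac9) and 80 did not pass the test (limma with Benjamini-Hochberg adjustment over all 9925 genes, threshold 0.05). The 7 amounted to 7.95% of the members against 5.63% of all genes tested, and the 1 to 1.14% against 6.01%, so that the share called either way, 9.09%, was close to the 11.6% of the whole table. Hdac9 entered the test through the 3 WT arrays alone, its Runx3-/- values lying below the array medians, so that its count and share describe no more than that gene. Without the filter on dim probe sets 5 members were higher and 0 lower, and 5.26% of all genes were called. Differences are given throughout as Runx3-/- minus WT on the log2 scale of the normalized signal.

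The promoters of the members that passed are shown first, because Runx proteins bind a short DNA motif and sequence is what a reader can set beside the signals. RefSeq promoters (assembly GRCm38.p6, 250 bases before to 50 after a start) were at hand for 4 of the 8 members, Setd4, Arid3b, Hdac9 and Chd6, and not for Hdac1, Hdac10, Chd3 or Arid4a. The RUNX hexamers were searched on both strands: TGTGGT, present in 16.8% of all 32851 promoters of the table, TGTGGC, in 18.9%, TGCGGT, in 6.45%, and TGCGGC, in 12.4%. The table gave 6 promoters for the 4 genes, of which 4 held at least 1 hexamer, where 45.2% of all promoters did. The promoter of Chd6 and 1 of those of Hdac9 held none. Among the 93 promoters of tested members, 48.4% did. Such a short motif is common by its length, and a match is only a description of the letters. Each sequence runs 5′ to 3′ on the gene's own strand, with the hexamers or their reverse complements in capitals. Where RefSeq gave several promoters, the one with most matches is printed. The Setd4 promoter (chr16:93603766-93604065, minus strand) held 3 matches, of which the first and second overlap by a base, the Arid3b promoter (chr9:57836435-57836734, minus strand) held 2, before and after the start, and the Hdac9 promoter (chr12:34917046-34917345, minus strand) held 1, before the start.
Setd4: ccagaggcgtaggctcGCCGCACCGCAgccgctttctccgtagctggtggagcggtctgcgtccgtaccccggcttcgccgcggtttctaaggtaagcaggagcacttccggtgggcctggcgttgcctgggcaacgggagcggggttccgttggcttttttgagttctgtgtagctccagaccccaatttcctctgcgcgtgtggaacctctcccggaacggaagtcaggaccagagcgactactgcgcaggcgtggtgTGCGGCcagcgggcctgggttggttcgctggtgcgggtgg
Arid3b: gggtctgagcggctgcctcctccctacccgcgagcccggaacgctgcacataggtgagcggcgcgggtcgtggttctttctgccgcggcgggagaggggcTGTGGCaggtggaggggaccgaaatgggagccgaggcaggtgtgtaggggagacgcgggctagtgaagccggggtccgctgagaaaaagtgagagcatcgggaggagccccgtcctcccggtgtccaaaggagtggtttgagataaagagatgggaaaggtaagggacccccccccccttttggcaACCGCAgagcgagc
Hdac9: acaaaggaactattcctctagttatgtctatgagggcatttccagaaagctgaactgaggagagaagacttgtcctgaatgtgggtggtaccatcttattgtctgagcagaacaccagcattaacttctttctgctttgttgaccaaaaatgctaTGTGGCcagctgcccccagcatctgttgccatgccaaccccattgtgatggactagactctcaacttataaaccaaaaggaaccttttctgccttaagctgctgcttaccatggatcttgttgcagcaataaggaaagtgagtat

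Markers and label checks were as follows. The Runx3 probe set read 7.06, 7.17 and 7.64 in Runx3-/- arrays and 7.09, 7.30 and 6.99 in WT arrays, and since it is not known whether it lies in the deleted part, it does not check the labels. Cd4, which Runx3 is known to silence, was 2.57 higher and the integrin gene Itgae 2.61 lower on the log2 scale (differences of 2.57 ± 0.12 and -2.61 ± 0.17, SE, limma adjusted p = 2.36e-05 and 9.9e-05). Of 10 tested T cell and CD8 markers, 2 were higher and 0 lower, with mean levels of 9.40 to 9.61 in Runx3-/- and 9.18 to 9.42 in WT arrays. Markers of several other cell types were lower in Runx3-/- arrays. For B cells these were 16 of 18 tested markers (mean level 4.20 to 4.34 in Runx3-/- and 6.00 to 6.72 in WT arrays). For macrophages and monocytes they were 20 of 21 (3.89 to 4.40 in Runx3-/- and 6.07 to 6.25 in WT arrays). Also lower were 5 of 8 erythroid markers (1 higher), 2 of 6 plasma cell markers and 2 of 4 neutrophil markers. Of 17 dendritic cell markers 4 were lower and 0 higher, with a median difference of -0.6 (lowest -1.52, highest 0.72). Natural killer cell markers did not move as a set. Of 10 tested, 2 were lower and 0 higher, with a median difference of -0.022 (lowest -2.03, highest 1.48). Some of these markers lay below the array medians throughout 1 genotype and passed the filter through the other alone. This held in Runx3-/- arrays for the macrophage markers Marco (2.87, 2.87 and 2.91), Mertk, Fcgr1, Tlr4 and Clec4a1 and the B cell markers Ebf1 and Fcer2a. It held there too for the erythroid markers Slc4a1, Car1 and Rhd and the plasma cell marker Mzb1. S100a8 and Ngp, the 2 neutrophil markers that were lower, were likewise below the medians in Runx3-/- arrays. The counts of lower markers given above include all of these. It held in WT arrays for Gata1 (3.35, 2.96 and 2.87), the erythroid marker that was higher. Such differences are no measure of a level in that genotype. Of all genes tested, 5.63% were higher and 6.01% lower. Of 25 cell cycle genes 0 passed in limma. At an unadjusted limma p under 0.05, 0 of them were higher and 2 lower (14.0% and 13.7% of all genes tested were). Of 8 immediate early genes 2 passed as higher and 0 as lower. The part of these other cells in the results on chromatin genes was not tested, and in such bulk RNA fewer cells of a type and less RNA per cell cannot be told apart.

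Among the deacetylases, which remove acetyl groups and are mostly tied to repression, 2 of 10 tested members were higher in Runx3-/- cells and 1 was lower. Of all genes tested, 5.63% were higher and 6.01% lower. Hdac1, a catalytic subunit of the Sin3, NuRD and CoREST corepressor complexes, read 9.63, 9.55 and 9.48 in Runx3-/- arrays and 9.15, 9.06 and 8.99 in WT arrays. The groups lay apart, every Runx3-/- array above every WT array, and the spread within each was small. The difference was 0.49 ± 0.09 (SE, n = 3 per group), a 1.40-fold higher level with a 95% interval of 0.28 to 0.70 on the log2 scale (limma adjusted p = 0.0136). A dimmer Hdac1 probe set gave 0.48 ± 0.10 (limma adjusted p = 0.0190 in a fit of all 11020 single-gene probe sets that passed the filter, of which 5.09% were higher). RefSeq lists a pseudogene named after Hdac1, and whether either probe set also reads it was not resolved.

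Hdac10, a deacetylase known to act on acetylated polyamines, read 5.35, 5.90 and 5.44 in Runx3-/- arrays and 4.70, 4.84 and 5.07 in WT arrays. Its groups did not overlap, and its difference, 0.69 ± 0.16 (SE, limma adjusted p = 0.0298), was the largest of all 88 tested members at 1.62-fold. Without the filter on dim probe sets Hdac10 did not pass (limma adjusted p = 0.0520). Hdac9, a class IIa deacetylase that binds Mef2 factors, had the only negative difference past the threshold. It read 3.40, 3.40 and 3.42 in Runx3-/- arrays and 3.70, 3.72 and 4.02 in WT arrays, a difference of -0.41 ± 0.11 (SE, limma adjusted p = 0.0467). The Runx3-/- values lay below the array medians of 3.47 to 3.53, where signal may be background, so that Hdac9 passed the filter through the 3 WT arrays alone, the only member to do so, and its difference is no measure of a level in Runx3-/- cells. Without the filter it did not pass (limma adjusted p = 0.0517). Its lower level in Runx3-/- arrays went with those of the B cell and macrophage markers given above, whose part in it was not tested. With any 1 of the 6 arrays left out, Hdac9 did not pass (limma adjusted p = 0.0720 to 0.119), whereas Hdac1 passed in all 6 such fits (0.0302 to 0.0458).

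The other deacetylases did not pass. Hdac7, a class IIa member known from thymocytes, was nearest at 0.33 ± 0.09 (SE, limma adjusted p = 0.0513). It passed in 5 of 17 alternative settings (lowest limma adjusted p = 0.0379). Its 3 Runx3-/- arrays, at 7.56, 7.71 and 7.64, all lay above the WT arrays, at 7.22, 7.36 and 7.32. Hdac2, which pairs with Hdac1 in corepressor complexes, had a difference of -0.13 ± 0.09 (SE, limma adjusted p = 0.396), of opposite sign to that of Hdac1. Hdac3, the enzyme of the NCoR and SMRT complexes, had a difference of 0.019 with a 95% interval of -0.19 to 0.23, and its sign turned when arrays were centred on their medians (-0.00078) or without Runx3-/- replicate 2 (-0.041). Hdac4 was read by a pair of probe sets with differences of -0.28 and -0.72, of which neither passed (limma adjusted p = 0.186 and 0.129). In the dimmer of them Runx3-/- replicate 3 stood apart at 4.84, against 5.98 and 5.89 in the other Runx3-/- arrays and 6.21 to 6.39 in WT arrays. Over the class the median difference was 0.10, and it was 0.018 without Runx3-/- replicate 2.

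**Figure D1:**
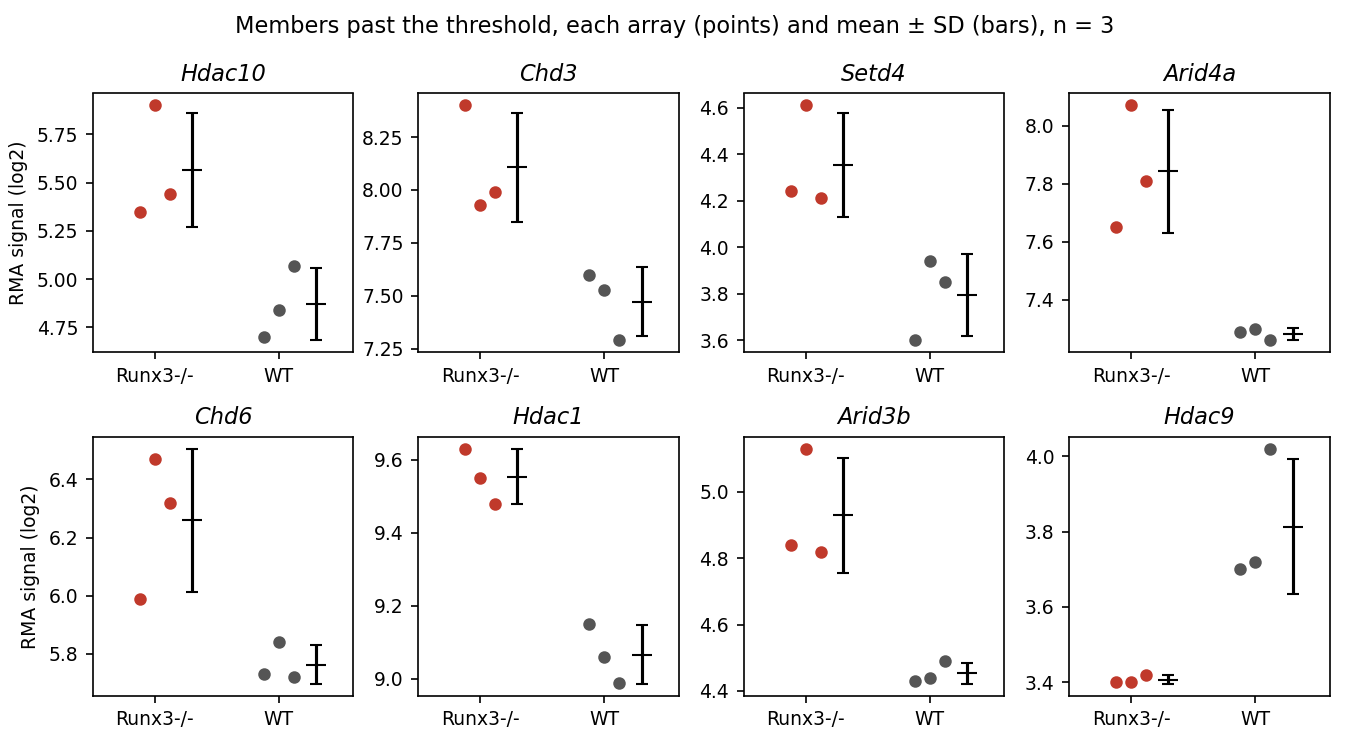
RMA signal on the log2 scale (vertical axes, not starting at 0) of the 8 members that passed the test, in each Runx3-/- array (red points) and each WT array (grey points), with means and SD (n = 3 mice) drawn beside them. The groups do not overlap in any panel, Hdac9 is the only gene with lower signal in Runx3-/- arrays, where its points lie together near 3.4, below the array medians.

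Sirtuins are deacylases that consume NAD. Of 6 tested, 0 passed in limma. At an unadjusted limma p under 0.05, 2 were higher and 0 lower (14.0% and 13.7% of all genes tested were). The median difference was 0.06 (lowest -0.11, highest 0.35). It was 0.017 without the filter, 0.031 without WT replicate 1, 0.039 without Runx3-/- replicate 2 and 0.11 without Runx3-/- replicate 3. Sirt7, a nucleolar and chromatin-bound sirtuin, came nearest with 7.58, 7.70 and 7.67 in Runx3-/- arrays and 7.28, 7.20 and 7.43 in WT arrays (0.35 ± 0.10, SE, limma adjusted p = 0.0554). Its groups lay apart. Sirt4, a mitochondrial sirtuin, had a difference of 0.28 ± 0.12 (SE, limma adjusted p = 0.174) at a low signal, with 1 of 3 WT arrays at or above the array median. Sirt1 differed by -0.052 with a 95% interval of -0.29 to 0.19, and by 0.041 without Runx3-/- replicate 3.

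Among the histone methyltransferases of the Kmt and Setd families, 1 of 18 was higher and 0 lower, and 14 of 18 differences were positive (median 0.18, lowest -0.11, highest 0.56). Over all genes tested, 5.63% were higher, 6.01% were lower and 51.1% had a positive difference. Setd4, a SET domain protein with a low signal here, read 4.24, 4.61 and 4.21 in Runx3-/- arrays and 3.60, 3.94 and 3.85 in WT arrays. Its groups lay apart by less than the range within either, and the difference was 0.56 ± 0.14 (SE, limma adjusted p = 0.0393). It did not pass without the filter (limma adjusted p = 0.0613) or with any 1 array left out (0.0544 to 0.125). Its promoter is the one above with 3 RUNX hexamers.

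Kmt2a, the MLL1 enzyme that methylates histone H3 at active promoters, averaged 8.29 ± 0.12 in Runx3-/- arrays and 7.92 ± 0.10 in WT arrays (SD, n = 3 each). All 3 Runx3-/- arrays, the lowest at 8.15, were above the WT arrays, with a difference of 0.37 ± 0.10 (SE, limma adjusted p = 0.0524) that did not pass. Kmt5b, which methylates histone H4, had a difference of 0.32 ± 0.09 (SE, limma adjusted p = 0.0661), likewise with groups apart. The MLL relatives Kmt2b, Kmt2d, Kmt2e and Kmt2c had differences of 0.30, 0.28, 0.24 and 0.10 and did not pass. Setd1a, Setdb1, Setd5, Setd2 and Kmt5a lay between -0.11 and 0.0082.

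The 4 PRC2 core genes had differences of 0.043 to 0.20, and 0 passed in limma, nor did any reach an unadjusted p under 0.05. Ezh2, its main methyltransferase in dividing cells, read 6.99, 6.74 and 6.78 in Runx3-/- arrays and 6.61, 6.60 and 6.70 in WT arrays (0.20 ± 0.10, SE, limma adjusted p = 0.243). Ezh1, its counterpart in resting cells, also had groups that did not overlap (0.14 ± 0.09, SE, limma adjusted p = 0.346). For the structural subunits Suz12 and Eed the groups overlapped, with differences of 0.099 ± 0.11 and 0.043 ± 0.12 (SE).

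Of 17 tested histone demethylases 0 passed in limma, with a median of 0.12 and a range of -0.32 to 0.49. At an unadjusted limma p under 0.05, 2 were higher and 1 lower (14.0% and 13.7% of all genes tested were). The demethylase median was 0.026 without WT replicate 3, 0.055 without Runx3-/- replicate 2 and 0.074 without Runx3-/- replicate 1. Kdm6b (JMJD3), which removes the mark that PRC2 writes, read 6.64, 6.71 and 6.42 in Runx3-/- arrays and 6.24, 6.24 and 5.83 in WT arrays. Every Runx3-/- array was above every WT array, yet the SE was 0.14 on a difference of 0.49 (limma adjusted p = 0.0559). Its relative Kdm6a, which acts on the same mark, had overlapping groups and a difference of 0.20 ± 0.12 (SE, limma adjusted p = 0.327). Kdm3b, a demethylase of a repressive histone H3 mark, had 8.50, 8.69 and 8.45 in Runx3-/- arrays and 8.02, 8.28 and 8.18 in WT arrays (0.39 ± 0.11, SE, limma adjusted p = 0.0544). Kdm2b, a demethylase that also brings variant Polycomb complexes to CpG islands, was the demethylase with the most negative difference. It read 5.43, 5.52 and 5.33 in Runx3-/- arrays and 5.79, 5.64 and 5.80 in WT arrays, groups that did not overlap (-0.32 ± 0.10, SE, limma adjusted p = 0.0737). Kdm5d, on the Y chromosome, had a difference of -0.0016, and in it Runx3-/- replicate 3 stood apart at 5.31 against 6.18 and 6.38 in the other Runx3-/- arrays and 5.82 to 6.11 in WT arrays.

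For DNA methylation, neither of the 2 tested Dnmt genes passed, nor reached an unadjusted p under 0.05 in limma. Dnmt1, which copies methylation after replication, differed by 0.088 ± 0.10 and Dnmt3a, which places new methylation, by 0.17 ± 0.09 (SE, limma adjusted p = 0.599 and 0.285). The Dnmt3a groups lay apart, at 5.84, 5.93 and 5.77 in Runx3-/- and 5.72, 5.73 and 5.60 in WT arrays. RefSeq lists a pseudogene named after Dnmt3a, as it does for Smarca5 and Smarce1 among the other tested members.

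All 3 Tet genes had positive differences (median 0.18, and 0.33 or 0.30 without WT replicate 1 or 2), and 0 passed in limma on the brightest probe set (Tet3 alone had an unadjusted p under 0.05). Tet3 read 6.87, 6.82 and 6.55 in Runx3-/- arrays and 6.47, 6.41 and 6.10 in WT arrays (0.42 ± 0.13, SE, limma adjusted p = 0.0795), with every Runx3-/- array above every WT array. A dimmer Tet3 probe set, at 5.90, 6.09 and 6.00 in Runx3-/- and 5.38, 5.70 and 5.52 in WT arrays, was higher by 0.47 ± 0.11 (SE, limma adjusted p = 0.0333 in the fit of all 11020 probe sets). The call for Tet3 thus depends on the probe set. Tet2 differed by 0.099 ± 0.11 (SE, limma adjusted p = 0.620). Tet1 differed by 0.18 ± 0.21 (SE) and rested on WT replicate 3, at 3.66 against 4.48 and 4.42 in the other WT arrays, without which its difference was -0.079.

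**Figure D2:**
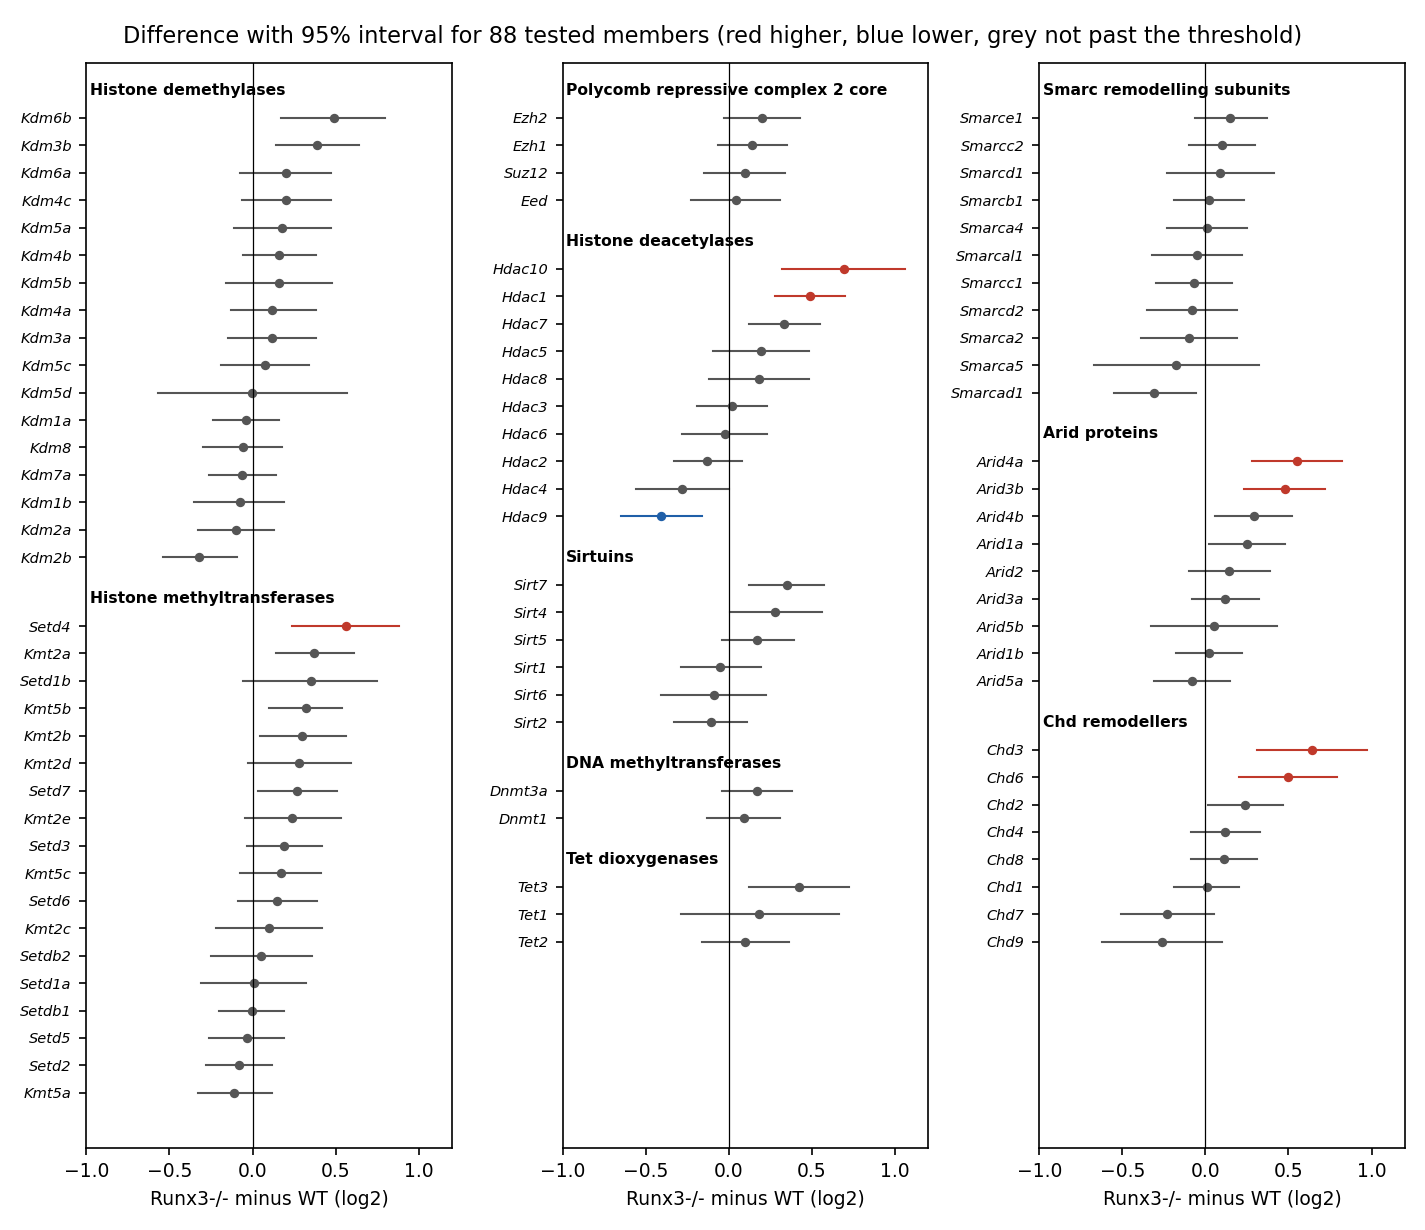
Difference Runx3-/- minus WT on the log2 scale (horizontal axes) with its 95% interval from limma for each of the 88 tested members, by class. Red points passed the test as higher in Runx3-/- (7 genes) and blue as lower (Hdac9), and most grey points lie between -0.3 and 0.4.

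Smarc genes encode ATPases and core subunits of SWI/SNF and ISWI remodellers. Of 11 tested, 0 passed in limma. At an unadjusted limma p under 0.05, 0 were higher and 1 lower (14.0% and 13.7% of all genes tested were). Among the differences 5 were positive and 6 negative, and the median was -0.05, the only class median below 0. Its sign was not stable: without Runx3-/- replicate 3 the class median was 0.042, without the filter 0.012, and with other arrays left out -0.039 to -0.017. Smarca4 (BRG1), the main SWI/SNF ATPase of lymphocytes, read 7.32, 7.47 and 7.31 in Runx3-/- arrays and 7.30, 7.25 and 7.51 in WT arrays. These groups overlapped almost fully, with a difference of 0.012 and a 95% interval of -0.23 to 0.25, whose sign turned when arrays were centred on their medians (-0.0070). Smarce1 (BAF57), known for its part in Cd4 silencing, was paired with 3 probe sets with differences of 0.15, 0.11 and 0.07, and for the brightest the limma adjusted p was 0.331. Whether any of them also reads the pseudogene named after Smarce1 was not resolved. Smarcc1, a scaffold of the complex, differed by -0.071 ± 0.10 (SE, limma adjusted p = 0.697). Smarcad1, a remodeller outside SWI/SNF, had the largest difference of the class. It read 6.36, 6.32 and 6.05 in Runx3-/- arrays and 6.59, 6.58 and 6.49 in WT arrays, with groups apart (-0.31 ± 0.11, SE, limma adjusted p = 0.108). Smarca5, the ISWI ATPase, had Runx3-/- replicate 3 at 6.69, against 7.53 and 7.47 in the other Runx3-/- arrays and 7.29 to 7.63 in WT arrays.

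Arid proteins share a DNA-binding domain and serve in several complexes. Of 9 tested, 2 were higher and 0 lower in Runx3-/- cells, and 8 differences were positive (median 0.14). Over all genes tested, 5.63% were higher, 6.01% were lower and 51.1% had a positive difference. Arid4a, a subunit of the Sin3 deacetylase complex that binds Rb, read 7.65, 8.07 and 7.81 in Runx3-/- arrays and 7.29, 7.30 and 7.26 in WT arrays. The WT arrays lay within a few hundredths of each other (SD 0.02) and the Runx3-/- arrays were all above them but more spread (SD 0.21). The difference was 0.55 ± 0.12 (SE), or 1.47-fold (limma adjusted p = 0.0213). Its close relative Arid4b had groups apart and a difference of 0.29 ± 0.10 (SE, limma adjusted p = 0.106).

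Arid3b, a DNA-binding protein of the Bright family, read 4.84, 5.13 and 4.82 in Runx3-/- arrays and 4.43, 4.44 and 4.49 in WT arrays. Here too the WT arrays were tight and the groups apart (0.48 ± 0.11, SE, limma adjusted p = 0.0274). Arid1a, the large subunit of the BAF form of SWI/SNF, had 8.36, 8.26 and 8.36 in Runx3-/- arrays and 8.22, 8.04 and 7.97 in WT arrays. Its groups did not overlap, and its difference of 0.25 ± 0.10 (SE) did not pass (limma adjusted p = 0.142). With 1 array left out, Arid3b did not pass in 3 of 6 fits and Arid4a in 4 of 6, with limma adjusted p of up to 0.0896 and 0.0668.

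Chd proteins are ATPases with chromodomains. Of 8 tested, 2 were higher and 0 lower in Runx3-/- cells (median 0.11), where 5.63% of all genes tested were higher and 6.01% lower. Chd3 (Mi-2α), an ATPase of the NuRD complex, read 8.40, 7.93 and 7.99 in Runx3-/- arrays and 7.60, 7.53 and 7.29 in WT arrays. All 3 Runx3-/- arrays were above the WT arrays, with replicate 1 highest. The difference was 0.64 ± 0.14 (SE), or 1.55-fold (limma adjusted p = 0.0274), and without that replicate it was 0.49 (limma adjusted p = 0.0525). Chd4 (Mi-2β), its counterpart in the same complex, read 8.98, 8.89 and 8.85 in Runx3-/- arrays and 8.81, 8.85 and 8.71 in WT arrays. These groups met at 8.85, and the difference of 0.12 ± 0.09 (SE) did not pass (limma adjusted p = 0.440).

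Chd6 read 5.99, 6.47 and 6.32 in Runx3-/- arrays and 5.73, 5.84 and 5.72 in WT arrays (0.50 ± 0.13, SE, limma adjusted p = 0.0436). Its groups lay apart. A dimmer Chd6 probe set differed by 0.093 ± 0.10 (SE, limma adjusted p = 0.607), so that the probe sets of this gene did not give the same call, and their mean did not pass (0.30, limma adjusted p = 0.0891). Nor did Chd6 pass without the filter or with one at the 25th percentile (limma adjusted p = 0.0626 and 0.0503). Chd2 had groups apart without passing (0.24 ± 0.10, SE, limma adjusted p = 0.158), and Chd1 differed by 0.0087.

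Chd7, the gene mutated in CHARGE syndrome, was read by 30 probe sets, more than any other member. On the brightest (10503210) Chd7 read 8.27, 8.22 and 7.94 in Runx3-/- arrays and 8.21, 8.49 and 8.41 in WT arrays, groups that overlapped (-0.23 ± 0.12, SE, limma adjusted p = 0.270). Of the 30 Chd7 probe sets, 29 had a negative difference and 1 a positive one of 0.0092, and the median was -0.31. Groups lay apart in 23 of the 30, all lower in Runx3-/- arrays, where 16.7% of the 11020 single-gene probe sets were apart in that direction. In the fit of those probe sets 3 of the 30 passed as lower, against 5.5% of all, namely 10503172 (-0.59), 10503202 (-0.54) and 10503214 (-0.49). On probe set 10503172, Chd7 read 6.05, 6.08 and 5.91 in Runx3-/- arrays and 6.55, 6.62 and 6.63 in WT arrays (limma adjusted p = 0.00586). These probe sets read the same RNA of the same 6 mice and are not replicates. Their mean differed by -0.31 (limma adjusted p = 0.0717).

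**Figure D3:**
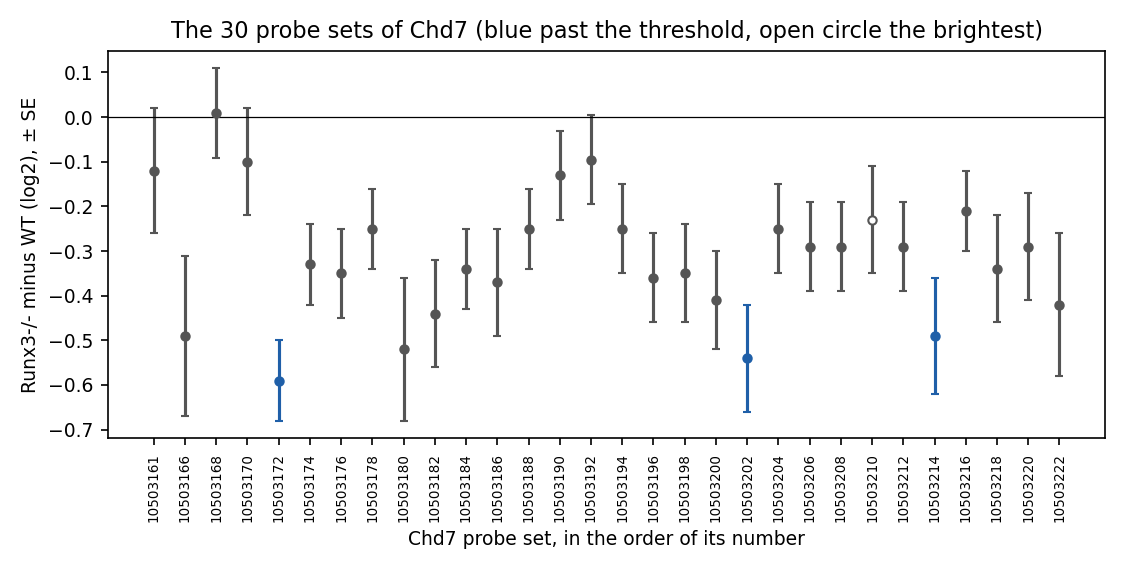
Difference Runx3-/- minus WT on the log2 scale (vertical axis) with its SE for each of the 30 Chd7 probe sets, in the order of their numbers (horizontal axis). All but 1 lie below 0, and the 3 that passed in the fit of all single-gene probe sets (blue) lie between -0.59 and -0.49, while the brightest (open circle) lies at -0.23.

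Across all 88 tested members 61 differences were positive (69.3%, against 51.1% of all genes tested), and the median was 0.11, against 0.0062 for all genes. The median was 0.19 over the 10 tested T cell and CD8 markers and 0.0048 over the 113 tested genes of the further chromatin lists below. All genes include markers of other cell types, with medians of -2.28 for B cell and -2.33 for macrophage and monocyte markers. Their part in the comparison was not tested. The differences were small: 84 of 88 were under 0.5 in size, from -0.41 (Hdac9) to 0.69 (Hdac10), and the median size was 0.152 for the members and 0.157 for all genes. From the 10th to the 90th percentile the members ran from -0.11 to 0.40 and all genes from -0.36 to 0.34, so that the members were fewer at the lower end. Groups did not overlap for 28 members with higher values in Runx3-/- cells (31.8%, against 17.4% of all genes tested) and for 4 with lower values (4.55%, against 16.2%), the 4 being Hdac9, Hdac2, Kdm2b and Smarcad1. Members are genes of the same 6 mice and not replicates, and no test was made over them.

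**Figure D4:**
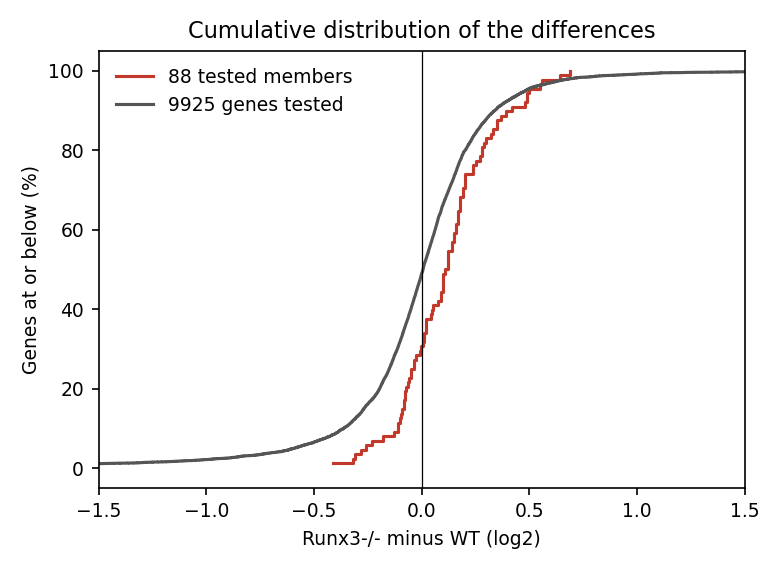
Cumulative share of genes (vertical axis, percent) at or below a given difference Runx3-/- minus WT on the log2 scale (horizontal axis, shown from -1.5 to 1.5) for the 88 tested members (red) and all 9925 genes tested (grey). The red curve lies right of the grey one around 0, with medians of 0.11 and 0.0062, and ends between -0.41 and 0.69, where the grey one runs on beyond the axis to -4.16 and 3.40.

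The shift of the members differed between mice. Against each gene's mean over the 6 arrays, the median member stood at 0.058, 0.11 and -0.021 in Runx3-/- replicates 1, 2 and 3 and at -0.026, -0.00071 and -0.11 in WT replicates 1, 2 and 3. The median of all genes was 0.018, 0.031 and -0.044 in the Runx3-/- arrays and 0.011, -0.0017 and -0.027 in the WT arrays. The Runx3-/- and WT arrays thus overlapped in the median member. With each array's median over all genes taken off they did not, at 0.040, 0.082 and 0.023 in Runx3-/- arrays and -0.037, 0.00094 and -0.082 in WT arrays. On both measures Runx3-/- replicate 2 was highest and WT replicate 3 lowest. Without WT replicate 3, 53 of 88 differences were positive (60.2%, against 49.5% of all genes), and without Runx3-/- replicate 3, 66 were (75.0%, against 55.4%).

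Leaving out arrays also changed which members passed. Of the 8, Hdac1 alone passed in all 6 fits with 1 array left out. Hdac10 did not pass in 4, Chd3 in 5, Chd6 in 5, and Hdac9 and Setd4 in all 6. The number of members higher in Runx3-/- cells was 5 without Runx3-/- replicate 1 or WT replicate 3, 2 without Runx3-/- replicate 2 or 3, and 1 without WT replicate 1 or 2. The number over all genes was lower too: 559 were higher with all arrays, 434, 234 and 302 without Runx3-/- replicates 1, 2 and 3, and 256, 332 and 421 without WT replicates 1, 2 and 3. The sign of all 8 differences stayed as it was in each of these fits. At a fold of at least 1.5 with an unadjusted p under 0.05, 2 members were higher, Chd3 and Hdac10 (3.12% of all genes tested were), and 0 were lower (4.96% of all were), where 1 was lower by the adjusted limma p. At that p without the fold, 20 members were higher (22.7%, against 14.0% of all genes tested) and 3 lower (3.41%, against 13.7%).

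**Figure D5:**
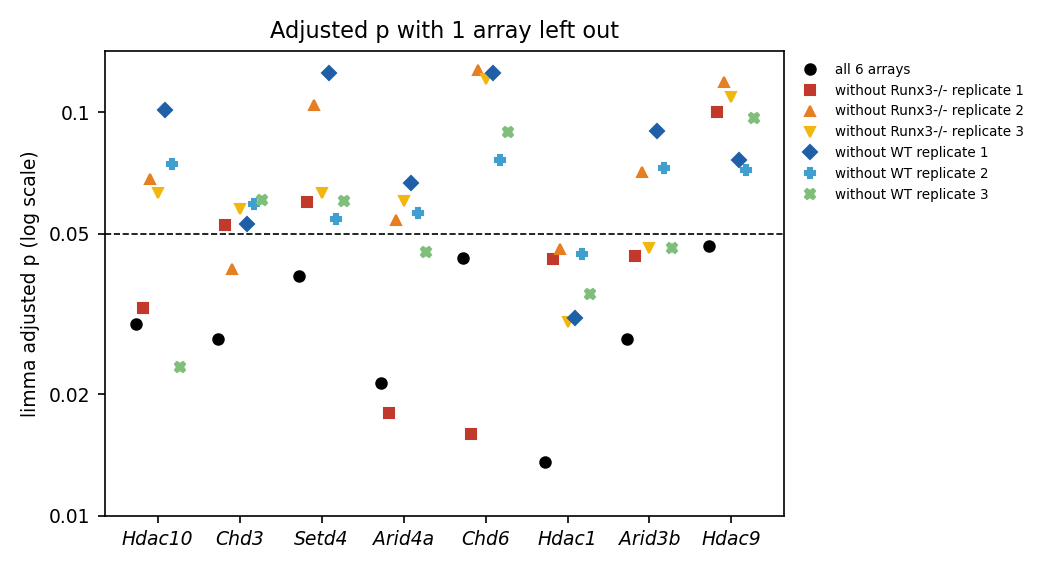
Adjusted p from limma (vertical axis, log scale, dashed line at 0.05) of the 8 members that passed with all 6 arrays (black circles), and with each Runx3-/- array (red to yellow) or WT array (blue to green) left out. Hdac1 stays under the line in all 6 fits, at 0.0302 to 0.0458, and Setd4 and Hdac9 lie above it in all 6.

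Genes that work with the members were taken from 11 further lists of chromatin genes. Of 130 listed genes 113 were tested, of which 7 were higher and 4 lower in Runx3-/- cells (5.63% and 6.01% of all genes tested were), and the median difference was 0.0048. Among 12 histone acetyltransferases and their coactivators 2 were higher: Ncoa3, a nuclear receptor coactivator, at 8.37, 8.38 and 8.31 in Runx3-/- and 7.74, 7.60 and 7.57 in WT arrays (0.71 ± 0.09, SE, limma adjusted p = 0.00215), and Ncoa1 (0.40, limma adjusted p = 0.0293). The groups lay far apart for Ncoa3, relative to the spread within each. Among 7 partners of PRC2, the Tudor domain proteins Phf1 (0.59, limma adjusted p = 0.0132) and Mtf2 (0.35, limma adjusted p = 0.0444) were higher and 0 lower. Phf1 read 6.88, 7.19 and 7.09 in Runx3-/- arrays and 6.45, 6.58 and 6.35 in WT arrays, with no overlap.

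Of 12 SWI/SNF partners, 1 was higher and 1 lower, both zinc finger genes. Bcl11b, a factor of T cell identity, read 8.54, 8.69 and 8.53 in Runx3-/- arrays and 8.16, 8.28 and 7.91 in WT arrays (0.47 ± 0.12, SE, limma adjusted p = 0.0368). Bcl11a, known from B cells, dendritic cells and erythroid cells, read 4.20, 4.68 and 4.24 in Runx3-/- arrays and 5.30, 5.65 and 6.07 in WT arrays (-1.30 ± 0.20, SE, limma adjusted p = 0.00581). It thus moved the same way as the 16 of 18 B cell markers that were lower, whose part in it was not tested. On the list of JmjC demethylases outside the Kdm family, Riox2 was higher (0.53, limma adjusted p = 0.0168) and Riox1 lower (-0.40, limma adjusted p = 0.0498), and on that of DNA methylation readers and helpers Mbd1, which binds methylated CpG, was higher (0.50, limma adjusted p = 0.0165) and Gadd45a lower (-0.51, limma adjusted p = 0.0239).

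Of 17 deacetylase corepressor genes, Gatad2a, a NuRD subunit, was lower (-0.40, limma adjusted p = 0.0356) and 0 were higher. In the remaining 5 lists 0 genes passed in limma. At an unadjusted limma p under 0.05, 5 were higher and 4 lower (14.0% and 13.7% of all genes tested were). The gene with the lowest p was Cbx7 among 15 Polycomb repressive complex 1 genes (0.49, limma adjusted p = 0.0537) and Smyd2 among 13 other histone methyltransferases (-0.36, 0.114). It was Ash2l among 8 COMPASS partners (-0.20, 0.224), Baz2a among 14 INO80, SRCAP and other remodellers (0.28, 0.128) and Brd2 among 2 BET proteins (0.15, 0.312). The list medians of these 5 lay between -0.021 and 0.10.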

How the data were processed

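RNA of 6 samples was hybridized to Affymetrix mouse Gene 1.0 ST arrays, 1 for each. The deposited values are on the log2 scale; the authors normalized the arrays by RMA with a GC correction in Partek, named also in the submitters' processing notes. Software versions, like the build, were not given in the sources used here. Such processing pulls low signals toward each other, so that folds of dim genes can come out too small.

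Of 35399 probe sets, the platform annotation in GEO gave 1 symbol to 21789, several to 1621 and none to 11989. A RefSeq table (GRCm38.p6) held the Entrez identifier of 21698 of the first kind, and 0 symbols needed an update. Probe sets with several symbols or none entered no comparison.

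Genotypes and replicate numbers came from the sample titles. Differences were tested, two-sided, with limma 3.58.1 (R 4.3.3; lmFit and eBayes, no covariates) over the 9925 genes at or above the array median in at least 1 of 6 arrays, each represented by its brightest probe set, with Benjamini-Hochberg adjustment at 0.05. Array medians were 3.45 to 3.53. Across genes, r was at least 0.985 within a genotype and at most 0.971 between genotypes. At most 14 values were identical in a pair of arrays. The script was tested on simulated data. With 3 mice a group, the number of arrays limits the precision.

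Members, classes, marker lists and chromatin lists were chosen with earlier results of these data known. Named were the members that passed, in each class the 2 with the lowest p and the brightest, 16 members known from T cells, and in each chromatin list the genes that passed and the one with the lowest p. Others were named after their values were seen: Kdm2b, Kmt5b, Arid4b, Chd1, Chd2, the remaining Kmt2 genes, Kdm5d, Kdm6a, Smarca5, Hdac4, Eed and the 5 methyltransferases near 0. Alternatives were other filters, normalizations, variance models and probe set choices, a replicate block, each array left out, and the methods' 1.5-fold.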

Additional observations from a re-analysis of the deposited data

Results flagged for a closer look

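A pair of probe sets outside the comparison, because they read 5 genes at once (4930522L14Rik, Zfp950, A630089N07Rik, Arid4b and Zfp932), had every Runx3-/- array above every WT array. Probe set 10532305 read 8.75, 8.65 and 8.74 in Runx3-/- arrays and 8.49, 8.52 and 8.46 in WT arrays, a difference of 0.23 on the log2 scale. Probe set 10532310 read 8.76, 8.67 and 8.77 in Runx3-/- arrays and 8.44, 8.60 and 8.49 in WT arrays, a difference of 0.22. Which of the 5 genes gave the signal cannot be told apart, and the differences were not tested. Another 4 probe sets with several symbols named a member, and in none of those did the groups lie apart in that direction.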

How the results depend on the processing

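The number of members higher in Runx3-/- cells was 7. It was 11 with a mean-variance trend, 2 at a fold of at least 1.5 with unadjusted p, 5 without a filter, 0 without moderation of variances (19 higher and 3 lower at an unadjusted p under 0.05), and 1 to 5 with an array left out. The number lower was 1, and it was 2 after quantile normalization and 0 without a filter, without moderation, with the replicate block, at a fold of at least 1.5, and in all fits with an array left out (0 to 0). Of all genes tested, 1155 differed, 182 without moderation and 625 to 925 with an array left out, 625 without Runx3-/- replicate 3 or WT replicate 1 and 634 without Runx3-/- replicate 2. Fewer arrays lower the precision. The cause of the other changes was not tested.

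The deacetylase median of 0.10 was 0.019 without a filter and with a filter at the 25th percentile, and 0.018 to 0.14 with an array left out. The Smarc median of -0.05 was -0.039 to 0.042, and the Arid median of 0.14 was 0.12 to 0.21, with an array left out. In the same fits the demethylase median of 0.12 was 0.026 to 0.17, the sirtuin median of 0.06 was 0.031 to 0.11, and the Tet median of 0.18 was 0.13 to 0.33. Without a filter the Smarc median was 0.012 and the sirtuin median 0.017. The Arid median was 0.12 after median centring and 0.11 with array weights.

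Over 32 named members and 17 alternatives, 467 of 544 values kept their sign and their side of the threshold, 54 lost the call, 15 gained it and 8 changed sign. The call was gained by Hdac7 in 5 alternatives, by Sirt7 in 3, by Kdm3b, Kdm6b and Tet3 in 2 each and by Kmt2a in 1. With an array left out, the differences of the members whose sign turned ran from -0.041 to 0.062 (Hdac3), -0.11 to 0.041 (Sirt1), -0.079 to 0.33 (Tet1) and -0.039 to 0.091 (Smarca4). The sign of Hdac3 turned after median centring (-0.00078) and without Runx3-/- replicate 2 (-0.041), that of Sirt1 without Runx3-/- replicate 3 (0.041), and that of Tet1 without WT replicate 3 (-0.079). The sign of Smarca4 turned after median centring (-0.0070), without Runx3-/- replicate 2 (-0.039) and without WT replicate 1 (-0.014) or 2 (-0.039). Hdac1 lost its call only without moderation (limma without eBayes, adjusted p = 0.0608) and at the 1.5-fold threshold.

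Replicate numbers are shared between the genotypes but name no shared animal, litter or day, and the deviations of same-numbered arrays correlated over 0.1 for number 1 only (0.177, against 0.0319 and -7.91e-05 for numbers 2 and 3), where those of arrays with different numbers ran from -0.141 to 0.083. With the replicate number as a block, 10 members were higher and 0 lower, and 7 of the 8 calls were kept. Signal over background was not analysed here, so that no limit is given for dim members such as Hdac9 and Setd4.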
